A study of Bombyx mori with 2 samples.

Results

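The nuclear genes for the mitochondrial respiratory complexes, the mitochondrial ATP synthase and the vacuolar proton pump were compared between heads of 2 silkworm (*Bombyx mori*) strains, the wildtype C603 and the *nm2* mutant. Genes were taken by the name of their best BLAST hit in the deposited expression table, where the name held NADH dehydrogenase, succinate dehydrogenase, cytochrome b-c1, cytochrome c oxidase, ATP synthase, vacuolar ATP or V-type proton ATPase in any case. This gave 81 of 12376 genes. By name, 26 belonged to complex I, 6 to complex II, 4 to complex III, 10 to complex IV, 18 to the ATP synthase (complex V) and 17 to the vacuolar ATPase.

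The wildtype C603 larvae developed normally, and the *nm2* larvae, which carry a deletion in the cuticular protein gene *BmCPG10* and arose in the C603 variety, do not molt and die. Both strains were fed mulberry leaves under the same conditions, and heads were taken at the pre-molting stage of the 2nd instar, with 6 larvae pooled for each library. No other allele or treatment is named for either pool. Expression was given as FPKM, fragments scaled to the length of the gene and to the mapped fragments of the library, in 1 library per strain, so no spread between replicates exists and no difference below has a replicate check or a test.

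Electrons from NADH enter the respiratory chain at complex I and those from succinate at complex II. They pass through complex III and cytochrome c to complex IV, which reduces oxygen. Complexes I, III and IV pump protons out of the matrix, and the ATP synthase lets them return through its membrane part, Fo, and makes ATP in its soluble part, F1. The vacuolar ATPase is built on the same plan but runs in the other direction: its soluble part, V1, splits ATP and its membrane part, V0, moves protons into organelles or across the cell membrane. In lepidopteran larvae the pump is known for energising ion transport in the goblet cells of the midgut, and insect muscle is rich in mitochondria. Subunits are named here after their homologues in mammals, or in yeast for the QCR names, and the roles given are those known from these organisms.

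The depth was similar, with 12912619 clean reads in wildtype heads and 12900347 in *nm2* heads, of which 55.48% and 60.12% aligned to the gene set. Reads with several positions made up 4.67% of wildtype and 6.83% of *nm2* reads. The reads behind the FPKM could be recovered for genes with a listed length only, at totals of about 3764000 and 4067000 reads. These totals are 52.5% and 52.4% of the reads listed as aligned to genes, for a reason the sources used here do not give, and the read numbers and counting intervals below rest on them. A gene of 500 effective bases at 100 FPKM in both libraries then has a 95% half-width of its log2 ratio of 0.29 from counting alone, and 0.13 at 500 FPKM. *BmCPG10* itself (*BGIBMGA002602*) had 117 FPKM in wildtype heads and 278 FPKM in *nm2* heads, and since only a stretch of the gene is deleted, this level is no check of the labels. The label head was compared with marker names. All 10 opsin and arrestin genes were under 5 FPKM in both libraries, and of 14 names of neuronal genes 7 reached that level, 4 higher and 3 lower in the *nm2* library. Synaptobrevin-like was the most abundant of these, at 204 and 129 FPKM, 3 neuroglian-like genes were 2-fold higher, and synaptotagmin I was at 5.47 and 2.34 FPKM. Muscle genes were abundant, with a summed 32928 FPKM in the wildtype over 29 genes. Trypsins and other midgut genes summed to 22268 FPKM in the wildtype over 46 genes, 30K and other fat body proteins to 13499 FPKM over 14 genes, and fibroin heavy chain of the silk gland was at 2284 FPKM, so transcripts that are characteristic of tissues outside the head were in both pools.

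Of the 81 genes, 77 reached 5 FPKM and are compared below, each of them in both libraries. The 4 others were a second gene named for the cytochrome b560 anchor of complex II (1.13 FPKM in wildtype heads and listed at 0 in *nm2* heads), another gene named for the ATP synthase beta subunit (0.200 and 0.190 FPKM), a second gene for subunit D of the vacuolar ATPase (0.320 FPKM and listed at 0) and the complex I assembly factor NDUFAF6 (4.63 and 3.52 FPKM). All members together held 2.44% of the summed FPKM in wildtype heads and 2.04% in *nm2* heads. Differences are given as log2((*nm2* + 1)/(wildtype + 1)), which slightly understates the change of low genes, and a difference of 2-fold was a log2 value of at least 1 in size. No member was 2-fold higher in the *nm2* library, where 8.83% of the 9158 genes at 5 FPKM or more were, and 1 member, NDUFA5 of complex I, was 2-fold lower, where 15.0% were. At 1.5-fold, 1 member was higher against 14.5% of all genes, and 10 were lower against 32.2%, or 31.7% of the genes with a mean of at least 50 FPKM. With the *nm2* library rescaled so that the median gene had no difference, 6 members were 1.5-fold higher and 1 was lower, beside 1886 and 1849 of the 9158 genes. As deposited, 66 of 77 members (85.7%) thus lay within 1.5-fold, against 53.3% of all genes and 50.8% of the 2085 genes with a mean of at least 50 FPKM. The level of a member in one library was close to that in the other across the 77 genes, with a Pearson r of 0.98 on the log2 scale and a Spearman rho of 0.96 as a description of the same genes in 2 libraries.

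**Figure D1:**
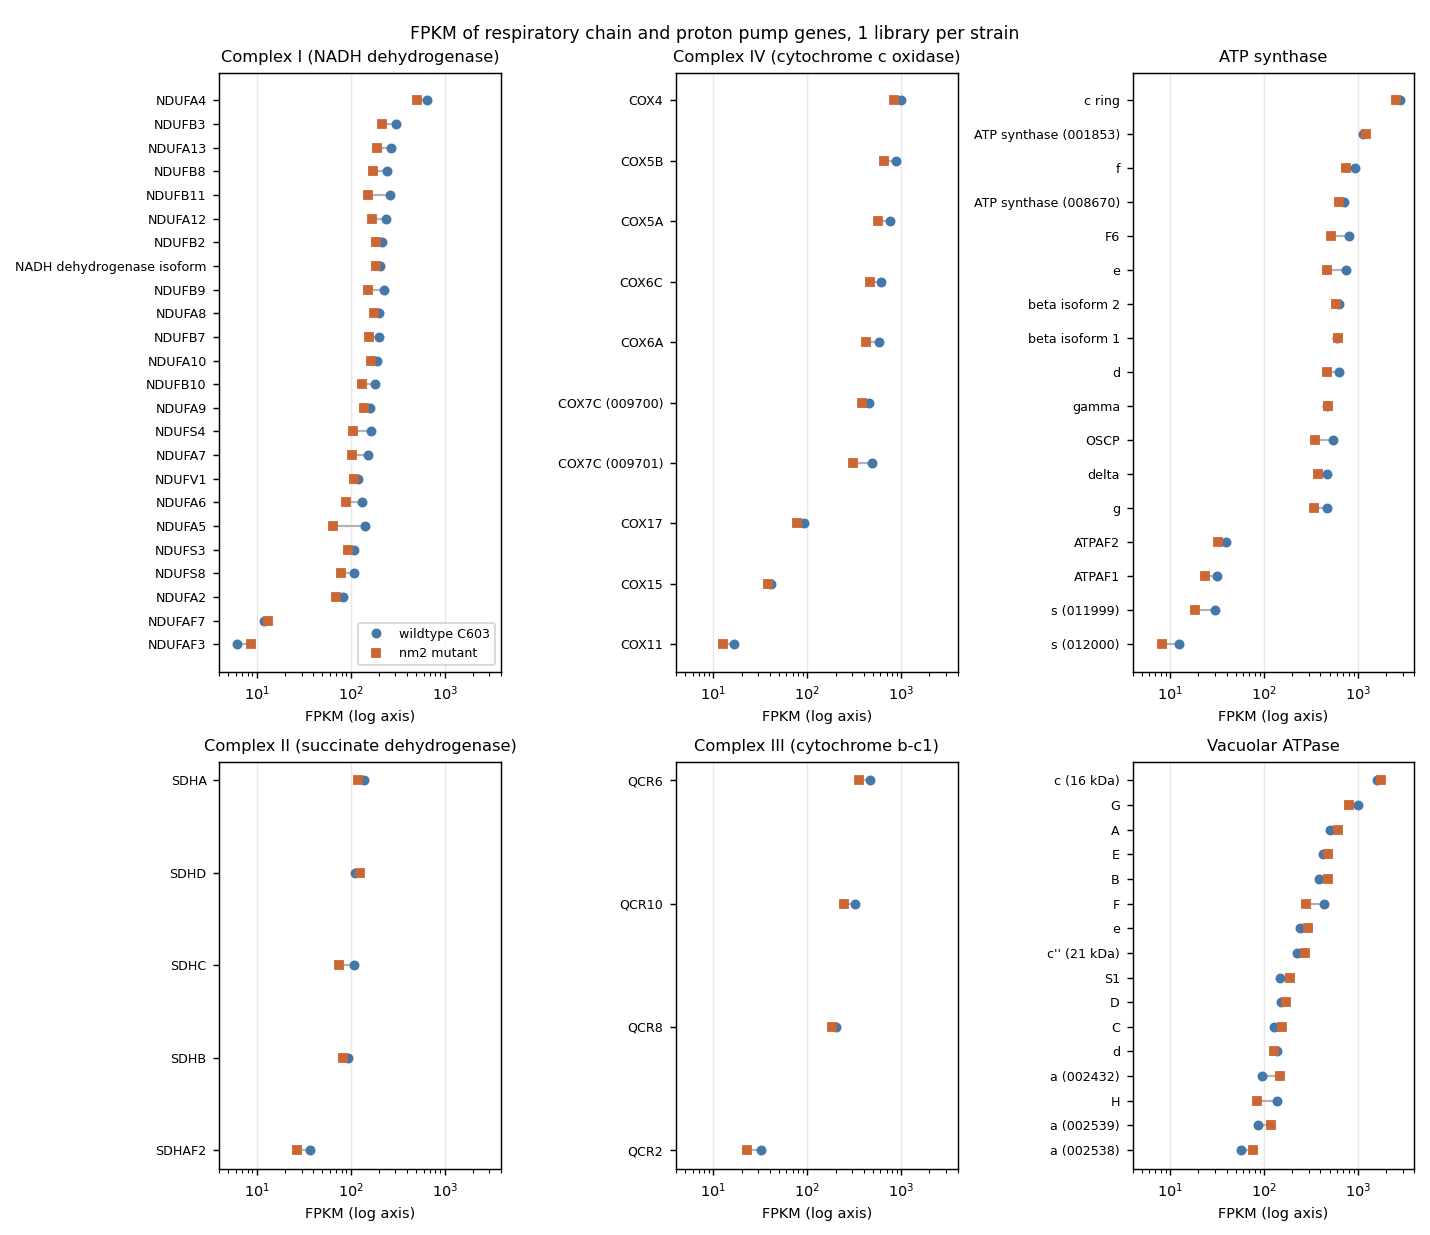
FPKM of members at 5 FPKM or more, by complex and ordered by mean level, for the C603 library (circles) and the *nm2* library (squares), on a log axis. In complexes I to V most squares lie to the left of the circles, and in the vacuolar ATPase 12 of 16 lie to the right; after setting the median of all genes to 0, 36 of 61 members of complexes I to V were lower.

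The direction of these small differences depended on the complex and on the scale. As deposited, 55 of 61 members of complexes I to V were lower in the *nm2* library and 6 were higher, while 12 of 16 vacuolar ATPase members were higher and 4 were lower. Of all genes, 67.2% were lower and 32.7% higher, with a median log2 difference of -0.30, so a lower value was the common state, and among the genes with a mean of at least 50 FPKM the shares were 66.8% and 33.2%. When the *nm2* library was rescaled so that the median log2 ratio of 7607 expressed genes, -0.28 as deposited, became 0, 36 of 61 members of complexes I to V were lower and 25 were higher, beside 47.5% of all genes higher. On that scale 13 of 16 vacuolar ATPase members were higher. The median of complexes I to V as deposited was -0.38 against -0.30 for all genes, and the median of the vacuolar ATPase was 0.28. Relative to all genes, the respiratory genes were therefore close to the middle, and the pump genes above it.

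Muscle markers were mostly lower as deposited, as were most genes. Of 26 muscle genes at 5 FPKM or more, 25 were lower in the *nm2* library, beside 67.2% of all genes. The other 1, a titin-like gene, was higher, and the median of the 26 was -0.44, beside -0.30 for all genes. Their sum over all 29 genes was 32928 FPKM in wildtype heads and 23032 FPKM in *nm2* heads, a ratio of 0.699, and no muscle marker was at 0 in either library. Troponin T, a regulator of contraction, was the most abundant, at 5447 FPKM in wildtype heads and 3798 FPKM in *nm2* heads. Of 34 midgut markers, 24 were higher, beside 32.7% of all genes, with a median of 0.64. They went both ways: 15 were 2-fold higher and 6 were 2-fold lower, beside 8.83% and 15.0% of all genes. Of the 34, 2 reached 5 FPKM in the *nm2* library only and 1 in the wildtype library only. The midgut sum was 22268 FPKM in wildtype heads and 41327 FPKM in *nm2* heads, with 3 of 46 genes at 0 in wildtype heads and 1 in *nm2* heads. The sum of the fat body genes was 29149 FPKM in *nm2* heads, a ratio of 2.16 to the wildtype. Medians were also above 0 for the markers of fat body (0.42), silk gland (0.29), haemocytes (0.23) and neurons (0.51), beside 0.28 for the vacuolar ATPase. The 7 neuronal genes were split: 4 were higher, of which 3 were neuroglian-like, and synaptobrevin, synaptobrevin-like and synaptotagmin I were lower. Among haemocyte genes 1 reached 5 FPKM in the *nm2* library only. In each of the fat body, haemocyte and neuronal lists 1 gene reached it in the wildtype library only. The part of these tissues in the results for the complexes was not tested. In whole heads, fewer cells of a type and less RNA per cell cannot be told apart.

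**Figure D2:**
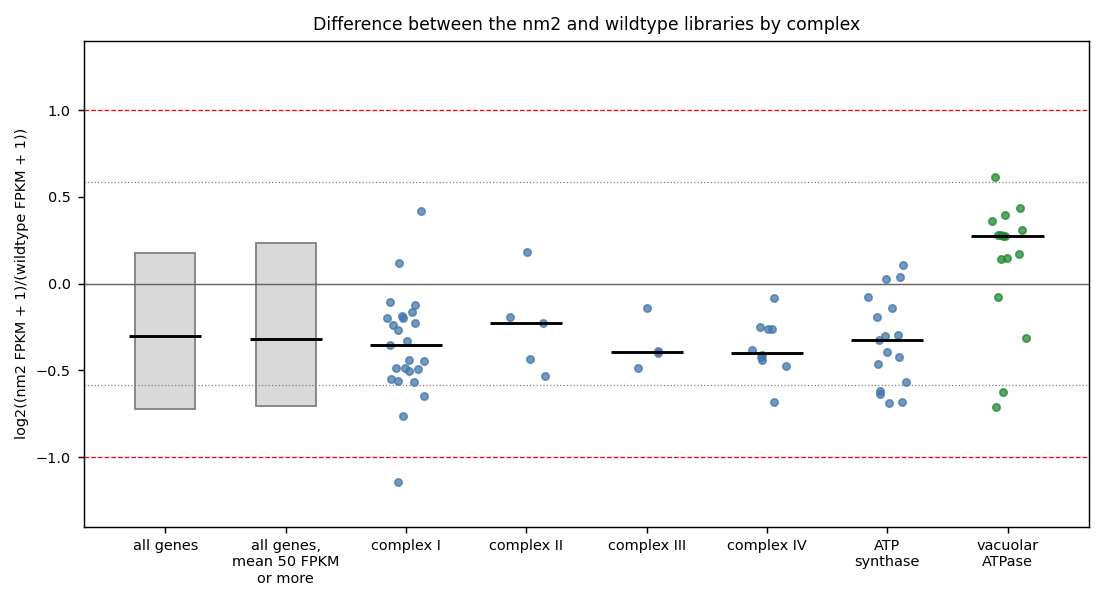
Log2 difference between the *nm2* and wildtype libraries for each member (points) with the median of each complex (black bars); grey boxes span the middle 50% of all genes and of genes with a mean of at least 50 FPKM. Dashed lines mark 2-fold and dotted lines 1.5-fold. The medians of complexes I to V lie between -0.40 and -0.22, near the -0.30 of all genes, and that of the vacuolar ATPase lies at 0.28; with the median of genes set to 0 the median of complex II turned to 0.06.

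In complex I, 23 of 25 members were lower in the *nm2* library as deposited, with a median of -0.36, and 14 of 25 after the median of genes was set to 0, with a median of -0.07. Accessory subunits, which surround the catalytic core, were all 18 lower as deposited, with a median of -0.49. NDUFA5 (*BGIBMGA003562*), an accessory subunit of the arm that faces the matrix, was the only member past 2-fold, at 144 FPKM in wildtype heads and 64.4 FPKM in *nm2* heads. It was also the only member whose length was listed, 357 bases, and its recovered reads numbered 174 in wildtype heads and 84 in *nm2* heads, a ratio of 0.447 with a 95% exact counting interval of 0.340 to 0.583. Lengths were listed only for genes that the authors called different between these same libraries. An interval that leaves out a ratio of 1 was therefore set in advance by that choice and adds no support. The interval covers counting error only and compares these libraries, not the strains. With the median of genes set to 0, NDUFA5 no longer passed 2-fold.

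The next accessory subunits by size of difference were NDUFB11 and NDUFS4. NDUFB11, of the membrane arm, was at 261 FPKM in wildtype heads and 153 FPKM in *nm2* heads (log2 -0.76), and NDUFS4, which sits near the NADH-binding end, was at 165 and 105 FPKM (log2 -0.64). NDUFA4 was the most abundant gene with a complex I name, at 653 FPKM in wildtype heads and 510 FPKM in *nm2* heads, although its mammalian homologue is now counted as a subunit of complex IV. NDUFB3 followed at 305 and 217 FPKM, and NDUFA13, known in mammals as GRIM-19, at 272 and 193 FPKM. These abundant members were each lower by less than 1.5-fold. The smallest difference among the accessory subunits was that of NDUFA8, at 199 and 175 FPKM (log2 -0.19).

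The 4 core subunits, which form the catalytic part, differed less, with a median of -0.18. NDUFV1, which binds NADH and flavin, was at 120 FPKM in wildtype heads and 107 FPKM in *nm2* heads, and NDUFS3 was at 108 and 94.0 FPKM. NDUFS8, which holds iron-sulfur clusters, had the largest difference of the core, at 108 and 79.3 FPKM (log2 -0.44). Assembly factors were at a much lower level than the subunits, and NDUFAF3 and NDUFAF7 were the only complex I members with a higher value in the *nm2* library. NDUFAF3 was at 6.20 FPKM in wildtype heads and 8.64 FPKM in *nm2* heads, and NDUFAF7, a methyltransferase, at 12.1 and 13.2 FPKM. At these levels the counting error alone is larger than the differences of most subunits: 20 FPKM on 500 bases gives a half-width of 0.64 on the log2 scale.

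Complex II couples the citric acid cycle to the chain. Its flavoprotein SDHA, the catalytic subunit, was at 139 FPKM in wildtype heads and 119 FPKM in *nm2* heads, and the iron-sulfur subunit SDHB was at 94.0 and 82.1 FPKM. The membrane anchors differed in direction: SDHC was at 109 and 75.3 FPKM (log2 -0.53), whereas SDHD was at 110 and 125 FPKM (log2 0.18). SDHAF2, which attaches the flavin to SDHA, was at 36.9 and 27.1 FPKM. The median of the 5 members was -0.22 as deposited and 0.06 with the median of genes set to 0, so complex II had no direction that held on both scales.

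All 4 members of complex III were lower in the *nm2* library as deposited, with a median of -0.39, and 3 of 4 were on the median-centred scale. QCR6, the hinge protein beside cytochrome c1, was at 465 FPKM in wildtype heads and 352 FPKM in *nm2* heads. QCR10, a small membrane subunit, was at 325 and 248 FPKM, and QCR8 at 204 and 185 FPKM. The core protein QCR2 was far less abundant than the others, at 32.2 and 22.7 FPKM. A second gene whose name reads core protein II, outside the naming rule, was at 168 and 137 FPKM, so the gene named QCR2 need not be the main source of this subunit.

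In complex IV, all 10 members were lower as deposited, with a median of -0.40, and 6 of 10 on the median-centred scale. The 7 nuclear subunits, which surround the catalytic core made in the mitochondrion, lay between 455 and 1003 FPKM in wildtype heads and between 305 and 836 FPKM in *nm2* heads. COX4, a regulatory subunit, was highest at 1003 FPKM in wildtype heads and 836 FPKM in *nm2* heads. COX5B, which binds zinc, was at 883 and 659 FPKM, and COX5A at 764 and 562 FPKM. COX6C was at 614 and 461 FPKM, and COX6A at 583 and 420 FPKM, so the order of these 5 subunits was the same in both libraries. The 2 genes named COX7C have neighbouring identifiers. *BGIBMGA009700* was at 455 and 379 FPKM, and *BGIBMGA009701* at 489 and 305 FPKM (log2 -0.68), the largest difference of the complex. RSEM divides reads that fit both of such near copies by an estimate, so the split between them is uncertain. Of the assembly factors, the copper chaperone COX17 was at 92.9 and 77.9 FPKM, COX15, which makes haem A, at 40.9 and 38.5 FPKM, and COX11, which brings copper to the catalytic core, at 16.7 and 12.6 FPKM. These factors were lower by less than 1.5-fold and lay far below COX4 in both libraries.

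**Figure D3:**
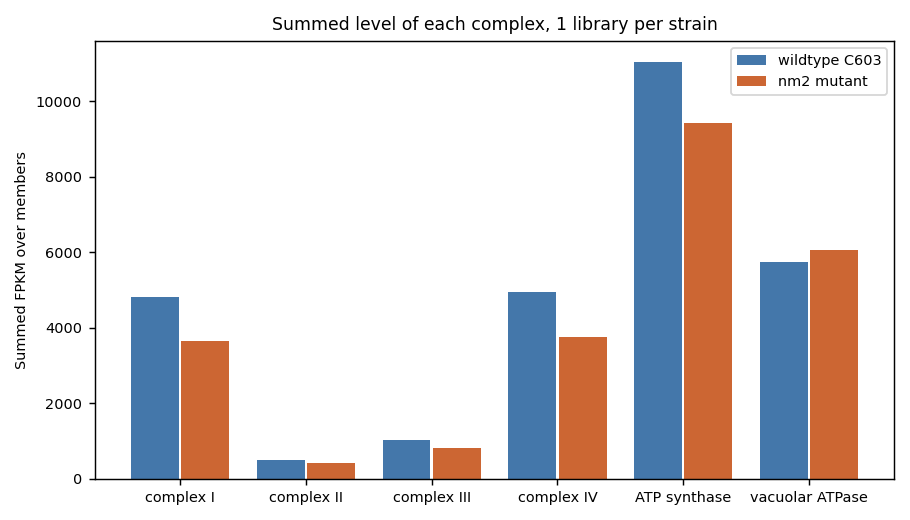
Summed FPKM over all members of each complex for the C603 and *nm2* libraries. The sums of complexes I to V are lower in the *nm2* library, with ratios of 0.759 for complexes I and IV, 0.787 for complex III, 0.853 for the ATP synthase and 0.873 for complex II, and the vacuolar ATPase is at 1.05; with the median of genes set to 0 the ratios of complex II and the ATP synthase turned to 1.06 and 1.04.

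The sum of FPKM over a complex gives more weight to the abundant genes. Complex I summed to 4804 FPKM in wildtype heads and 3648 FPKM in *nm2* heads, and complex IV to 4941 and 3750 FPKM. The ATP synthase was by far the most abundant, at 11048 and 9423 FPKM, followed by the vacuolar ATPase at 5750 and 6052 FPKM. The sum of the pump was thus nearly level, at a ratio of 1.05, although the median of its genes was 0.28 on the log2 scale. Leaving out the most abundant member of each complex moved these ratios little: the ratio of complex IV went to 0.740 and that of the vacuolar ATPase to 1.03.

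Within the ATP synthase, the soluble catalytic part and the membrane and stalk parts differed. Of the 4 F1 genes at 5 FPKM or more, 2 were higher and 2 lower in the *nm2* library, with a median of -0.03 as deposited. The beta subunit, which holds the catalytic sites, had 2 abundant genes. Isoform 1 was at 597 FPKM in wildtype heads and 614 FPKM in *nm2* heads, and isoform 2 at 624 and 591 FPKM, so their order was exchanged between the libraries by differences of a few percent. The gamma subunit, the rotating shaft, was at 469 and 478 FPKM. The delta subunit, at the foot of the shaft, was at 472 and 376 FPKM (log2 -0.33). Of the 2 genes named only ATP synthase, with no subunit given, *BGIBMGA001853* was at 1122 and 1209 FPKM and *BGIBMGA008670* at 718 and 629 FPKM.

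The 7 genes of the stalk and membrane part were all lower as deposited, with a median of -0.46. The c subunit, whose ring turns as protons pass, was the most abundant of all 81 members, at 2788 FPKM in wildtype heads and 2530 FPKM in *nm2* heads (log2 -0.14). Subunit e, which helps the enzyme to pair in the membrane, was at 756 and 472 FPKM (log2 -0.68), and subunit g of the same pairing module at 470 and 340 FPKM. Coupling factor F6 of the peripheral stalk was at 813 and 522 FPKM (log2 -0.64). OSCP, which joins that stalk to F1, was at 541 FPKM in wildtype heads and 351 FPKM in *nm2* heads (log2 -0.62), subunit d at 633 and 472 FPKM. Thus, as deposited, the peripheral stalk genes were 1.3-fold to 1.6-fold lower while the beta and gamma genes were nearly level. On the median-centred scale 6 of 17 ATP synthase members were higher, beside 3 as deposited.

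The regulators and assembly factors of the ATP synthase were rare and lower, with a median of -0.48 over 4 genes. The 2 genes named subunit s, which share their best hit in the BLAST search, were at 30.1 and 18.3 FPKM and at 12.5 and 8.15 FPKM. ATPAF1 and ATPAF2, chaperones of the beta and alpha subunits, were at 31.6 and 23.8 FPKM and at 39.8 and 32.1 FPKM. Over all complexes I to V, 8 of 10 assembly factors and regulators were lower, with a median of -0.34, and 47 of 51 subunits were, with a median of -0.39. Most members of both groups were thus lower as deposited, beside 67.2% of all genes, whose median was -0.30.

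The coding length of the members is not listed apart from that of NDUFA5, but the E value of the best BLAST hit, which is 0 for long alignments, separates long from short proteins roughly. Among complexes I to V, the 10 members with an E value of 0, among them SDHA, NDUFV1 and the beta genes, had a median of -0.13, and the 51 others had a median of -0.41. In the vacuolar ATPase the 7 members with an E value of 0 had a median of 0.31 and the 9 others 0.17. Among all genes with a mean of at least 50 FPKM and a *Bombyx* hit, 594 had an E value of 0 and a median of -0.23, and 1302 had a larger E value and a median of -0.36. Genes with an E value of 0 thus had the higher median in each of these sets. The parts of single complexes were not split by E value. Its part in the difference between F1 and the stalk, and between core and accessory subunits of complex I, was not tested.

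**Figure D4:**
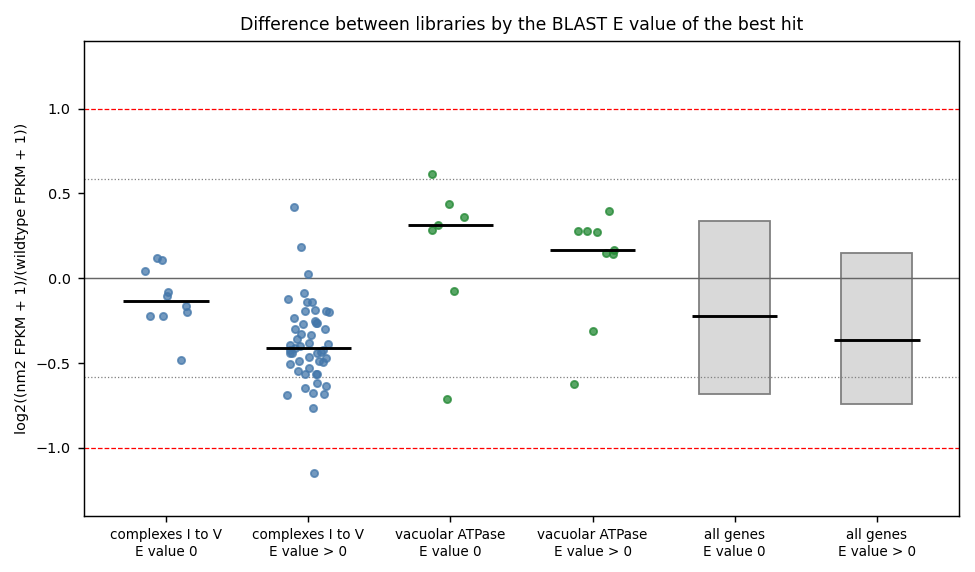
Log2 difference between the *nm2* and wildtype libraries for members with a BLAST E value of 0 and above 0, with medians as black bars; grey boxes span the middle 50% of genes with a mean of at least 50 FPKM and a *Bombyx* hit. The median of members with an E value of 0 is the higher 1 in each group, at -0.13 against -0.41 in complexes I to V and 0.31 against 0.17 in the vacuolar ATPase. In the vacuolar ATPase 5 of 7 members with an E value of 0 and 7 of 9 others were higher in the *nm2* library.

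In the vacuolar ATPase, 6 of 7 genes of the membrane part V0 were higher in the *nm2* library, with a median of 0.28. The 3 genes of subunit a, which forms the path of the protons, were all higher. *BGIBMGA002432* was at 96.5 FPKM in wildtype heads and 148 FPKM in *nm2* heads (log2 0.62), the only member of any complex that was 1.5-fold higher as deposited. On the median-centred scale 5 pump genes were 1.5-fold higher, the 3 genes of subunit a, subunit B and S1. *BGIBMGA002539* was at 87.5 and 119 FPKM (log2 0.44), and its neighbour in the gene numbering, *BGIBMGA002538*, whose best hit is the *Manduca sexta* protein, was at 57.6 and 76.2 FPKM (log2 0.40). Whether the last pair are parts of 1 gene or near copies is not known, so their separate values are uncertain. A further gene of this subunit outside the naming rule was at 4.57 and 6.05 FPKM. The c subunit of 16 kDa, which makes up most of the rotating ring, was the most abundant gene of the pump, at 1594 and 1761 FPKM, and the related ring subunit c'' of 21 kDa was at 224 and 271 FPKM. Subunit e was at 244 and 296 FPKM. Subunit d, which links the ring to the shaft, was the V0 gene with a lower value, at 136 and 130 FPKM, and turned to a higher value on the median-centred scale. The accessory subunit S1, which guides the pump to its membrane, was at 148 and 190 FPKM (log2 0.36).

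The V1 genes were divided, with 5 of 8 higher and a median of 0.16, while the sum over V1 was slightly lower, at 3162 FPKM in wildtype heads and 3060 FPKM in *nm2* heads, and the sum over V0 was 2440 and 2801 FPKM. Subunit A, which holds the catalytic sites, was at 500 FPKM in wildtype heads and 609 FPKM in *nm2* heads (log2 0.28), and subunit B, its partner in the head of the pump, at 388 and 482 FPKM (log2 0.31). Subunit C, which joins V1 to V0 when the pump is assembled, was at 127 and 154 FPKM. Subunits E and D, of the outer and inner stalk, were at 425 and 477 FPKM and at 154 and 170 FPKM. Against these, 3 V1 genes were lower. Subunit F, the partner of D in the inner stalk, was at 433 and 281 FPKM (log2 -0.62), and subunit H, which stops V1 from splitting ATP when it is released from V0, was at 138 and 84.1 FPKM (log2 -0.71). Subunit G of the outer stalk was at 997 and 803 FPKM (log2 -0.31). F and H were the only pump genes 1.5-fold lower as deposited and were within 1.5-fold on the median-centred scale. D and F of the inner stalk, and likewise E and G of the outer stalk, thus had differences of opposite sign on both scales. That of G was close to 0 on the median-centred scale, since its -0.31 lay near the -0.28 that was set to 0.

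Names of the same complexes that the rule does not catch gave 15 more genes. Of these, 12 were lower and 3 were higher as deposited, beside 67.2% and 32.7% of all genes. None differed by 2-fold, where 15.0% of all genes were lower and 8.83% higher. Their median was -0.26, beside -0.30 for all genes, and turned to 0.02 with the median of genes set to 0. Cytochrome c1 of complex III was at 394 FPKM in wildtype heads and 364 FPKM in *nm2* heads, and cytochrome c, the carrier between complexes III and IV, at 329 and 256 FPKM. NDUFS7, a core subunit of complex I, was at 157 and 131 FPKM, and the core subunit of 75 kDa at 106 and 99.8 FPKM. The ATPase inhibitor, which holds back ATP splitting by the ATP synthase, was at 499 and 343 FPKM. The complex I intermediate-associated protein, an assembly factor, was lowest among these by ratio, at 30.6 and 15.7 FPKM.

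Names of citric acid cycle and pyruvate dehydrogenase enzymes, cytosolic forms and regulators included, gave 29 genes at 5 FPKM or more. Of these, 18 were higher and 11 lower in the *nm2* library, beside 32.7% and 67.2% of all genes. Their median was 0.11, and their sum was 3960 FPKM in wildtype heads and 4040 FPKM in *nm2* heads. The 2-fold higher genes numbered 3, beside 8.83% of all genes, and none was 2-fold lower, beside 15.0% of all genes. Citrate synthase, the entry of the cycle, was at 191 FPKM in wildtype heads and 291 FPKM in *nm2* heads. Pyruvate dehydrogenase kinase, which switches off the entry of pyruvate, was among the 2-fold higher genes, at 3.72 and 11.7 FPKM, so that it reached the minimum in the *nm2* library only, with a malate dehydrogenase (*BGIBMGA006418*) at 28.0 and 57.1 FPKM and a homologue of DHKTD1 at 12.2 and 26.7 FPKM. An alpha subunit of the NAD-dependent isocitrate dehydrogenase (*BGIBMGA007161*) was at 237 and 122 FPKM, close to 2-fold lower. In glycolysis, 10 genes passed the minimum of 5 FPKM in each library. Of them, 6 were higher and 4 were lower, beside 32.7% and 67.2% of all genes, with a median of 0.16. The sum over all 11 glycolysis genes was 3738 FPKM in wildtype heads and 3487 FPKM in *nm2* heads. The most abundant gene, GAPDH, was at 1712 and 1454 FPKM, and triosephosphate isomerase at 506 and 351 FPKM. Enolase was at 391 and 472 FPKM, and the type 2-like hexokinase, the first enzyme of the pathway, was 2-fold higher at 22.6 and 55.1 FPKM. The HKDC1-like hexokinase, at 1.68 and 7.43 FPKM, reached the minimum in the *nm2* library only.

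Carriers and import proteins of the mitochondrion were compared last. The ADP/ATP translocase, which exports the ATP made by the ATP synthase, was at 2394 FPKM in wildtype heads and 3234 FPKM in *nm2* heads, above the c subunit of the ATP synthase in the *nm2* library. The voltage-dependent anion channel of the outer membrane was at 1193 and 1123 FPKM. Of 8 carriers, 1 was 2-fold lower, beside 15.0% of all genes. It was an SCaMC-2-like carrier (*BGIBMGA002001*) at 18.3 and 2.71 FPKM, which reached the minimum in the wildtype library only. The median of the carriers was -0.13 as deposited and 0.15 with the median of genes set to 0. Of 14 import and prohibitin genes, 10 were lower, beside 67.2% of all genes, with a median of -0.50, and 1 was 2-fold lower, beside 15.0% of all genes, the small translocase Tim9A at 47.6 and 21.5 FPKM. Tim10, its partner in the space between the membranes, was at 72.2 and 42.0 FPKM, and the receptor TOM20 at 215 and 164 FPKM.

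**Figure D5:**
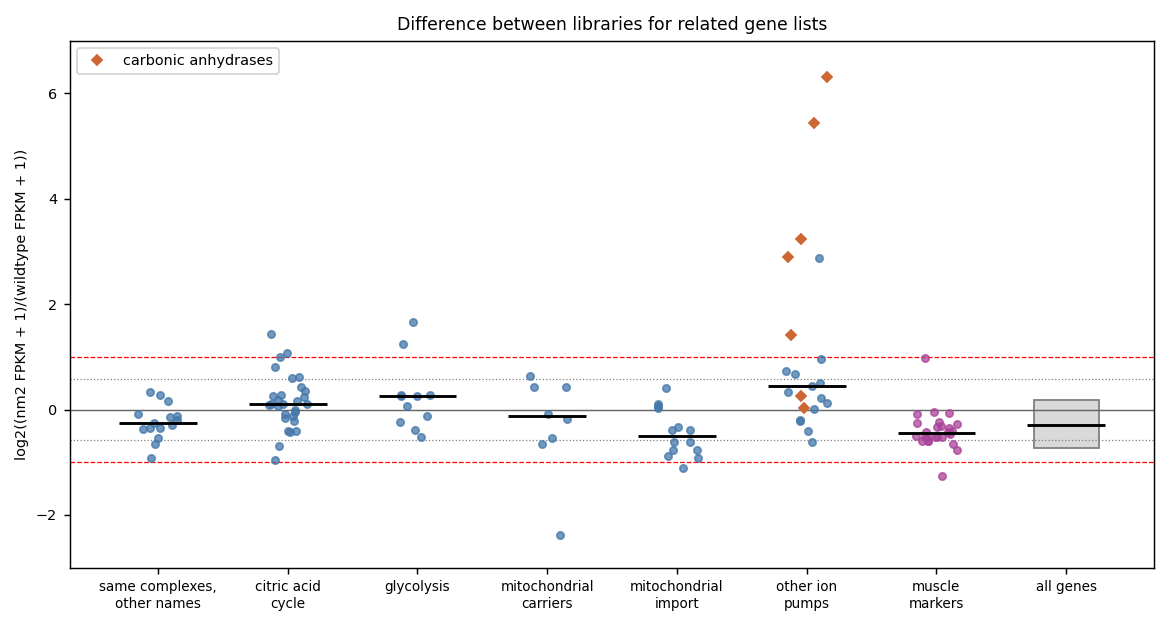
Log2 difference between the *nm2* and wildtype libraries for genes at 5 FPKM or more in lists related to the complexes, with medians as black bars; diamonds are carbonic anhydrases and the grey box spans the middle 50% of all genes. Muscle markers and import proteins lie below the median of all genes, and the citric acid cycle, glycolysis and other ion pumps lie above it. Of the last lists named, 6 other ion pumps, 1 glycolysis gene and 1 citric acid cycle gene reached 5 FPKM in the *nm2* library only. Over genes at that level in both libraries, their medians were 0.22, 0.16 and 0.10. The other ion pumps include the carbonic anhydrases, and the summed FPKM of that list without them had a ratio of 0.837. The medians of the genes with other names of the same complexes and of the carriers turned to 0.02 and 0.15 with the median of genes set to 0.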

How the data were processed

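Heads of 2nd instar larvae gave 1 library per strain. The authors aligned adapter-free clean reads to the SilkDB gene set, quantified them with RSEM and deposited FPKM per gene. Clean read counts and the percent of reads mapped were deposited by the authors per library. The deposited BLAST name and E value were used for the gene names. Columns of ratios, P-values, FDR and enrichments hold the authors' own comparisons and were not used. Listed lengths were used only to recover reads, by the smallest library total that makes FPKM times the length less 36 bases whole within 0.1 read: 90.0% of 380 wildtype values and 95.2% of 476 *nm2* values came out whole.

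Differences were log2((*nm2* + 1)/(wildtype + 1)), with a pseudocount of 1 FPKM and a minimum of 5 FPKM in a library. With 1 library per strain no test was made. The script was tested on simulated data. Values are given for members past 2-fold, the 3 most abundant and the 3 with the largest difference in each direction per complex, all of complex II and genes that share a subunit name; others named were chosen after their values were seen. The members and lists were chosen with earlier results of these data known. Rescaling, other pseudocounts, minimums and thresholds, and subsets of members were the alternatives; counts of direction under each rescaling were added after seeing the data. Genes were counted as deposited, mitochondrially encoded subunits were not analysed here, the values of 1 member are not reported here, and the strand setting is not given in the sources used here. The computations ran in Python 3.11.15 with SciPy 1.17.1, pandas 2.3.3 and NumPy 2.4.6, and the plots in matplotlib 3.10.9.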

Additional observations from a re-analysis of the deposited data

How the results depend on the processing

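With 1 library per strain, no library could be left out and no spread was measured. No paired analysis was possible because each strain has 1 library and no replicate number is shared. Of 111 alternative values, 85 stayed within 1.5 times for a count or 0.1 on the log2 scale for a median or ratio, 21 moved further and 5 changed direction. The count of all genes higher, within that limit, still went from 2999 to 4351 with the median of genes set to 0. Setting the median of genes to 0 changed most. The medians then became -0.074 for complex I, 0.056 for complex II, -0.11 for complex III, -0.12 for complex IV, -0.045 for the ATP synthase and 0.56 for the vacuolar ATPase. The summed ratios became 0.923, 1.06, 0.957, 0.923, 1.04 and 1.28 in the same order. On this scale 36 members of complexes I to V were lower, and the list medians were 0.018 for other names of the complexes, 0.39 for the citric acid cycle, 0.15 for carriers, -0.22 for import, 0.53 for glycolysis and 0.69 for other ion pumps. The list medians in this section cover genes at the minimum in either library. Over those genes the medians as deposited were 0.26 for glycolysis and 0.45 for other ion pumps. With the median of genes set to 0, 0 members were 2-fold lower, with no minimum 2 were, and at 1.5-fold 10 were lower and 1 was higher. With no minimum the median of complex II was -0.33. At a minimum of 20 FPKM the median of import was -0.39 and that of other ion pumps 0.25. The TPM and housekeeping scales, the pseudocounts of 0.1 and 5 FPKM, the use of subunits alone and the sums without the most abundant member moved no value beyond these limits. Depth limits genes under 20 FPKM most.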

Other observations

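Other ion pumps and their helpers gave 21 genes at 5 FPKM or more, but 6 of them reached it in the *nm2* library only, where a high value was needed to pass. Of the 15 at 5 FPKM or more in both libraries, 11 were higher and 4 lower in the *nm2* library, with a median of 0.22. Of all genes, 32.7% were higher. The 15 hold 4 carbonic anhydrases, all higher. Without genes of carbonic anhydrase name, 14 genes reached 5 FPKM in either library, 10 higher and 4 lower, with a median of 0.28. The sum over the 20 genes without that name was nevertheless lower, at 1166 FPKM in wildtype heads and 976 FPKM in *nm2* heads. Carbonic anhydrases form protons and bicarbonate. Of 8 genes named for them or for carbonic anhydrase-related proteins, 4 were at this level in both libraries, 3 in the *nm2* library only and 1 in neither. The last, named as a related protein, was at 0.360 FPKM in wildtype heads and listed at 0 in *nm2* heads. The carbonic anhydrase 2-like gene *BGIBMGA008042* was at 7.55 FPKM in wildtype heads and 80.1 FPKM in *nm2* heads. Neighbouring carbonic anhydrase 5-like genes were listed at 0 and at 0.460 FPKM in wildtype heads and at 78.4 and 62.2 FPKM in *nm2* heads. *BGIBMGA009245*, also named as a carbonic anhydrase-related protein, was at 1.11 and 14.8 FPKM. The 3 others that passed in both libraries were at 14.0 and 39.0 FPKM, 126 and 150 FPKM, and 5.29 and 5.41 FPKM. A mitochondrial sodium/hydrogen exchanger (*BGIBMGA006206*) was at 1.36 and 16.4 FPKM, whereas its neighbour *BGIBMGA006207*, of the same name, was at 33.4 and 28.8 FPKM. The calcium pump of the sarcoplasmic reticulum, a gene of muscle, was at 812 FPKM in wildtype heads and 610 FPKM in *nm2* heads. Most midgut markers were higher in the same library, as given with the complexes, and their part in these values was not tested.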
